A study of Mus musculus with 12 samples.

Results

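The leukocyte miRNA genes miR-142a, miR-150 and miR-342 were followed in injured mouse liver through both mature arms of each. The 6 rows of the count table with these names (mmu-miR-142a-3p, mmu-miR-142a-5p, mmu-miR-150-5p, mmu-miR-150-3p, mmu-miR-342-3p and mmu-miR-342-5p) were taken by name, out of 1929 mature miRNAs. All 6 passed the filter on low counts that left 607 miRNAs for testing. Small RNA had been sequenced from whole liver of C57BL/6 mice, 1 library per liver sample. The 6 livers of the PZH group came from mice injected intraperitoneally with CCl4 and dosed every day with Pien Tze Huang (PZH), a Chinese herbal preparation, by the intragastric route. The 6 livers of the water group came from mice injected with CCl4 in the same way and given double distilled water by that route. CCl4 is a liver toxin used to produce hepatic fibrosis, and both groups received it (the labels write CCl4 solvent for both), so that no uninjured liver stands beside them. The labels state neither the age nor the sex of the mice. They also do not say that each library is a separate animal, so livers are counted below as libraries. The question put by the design was which miRNAs differ with PZH in a fibrotic liver.

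Liver contains resident macrophages and lymphocytes, and toxic injury draws in more leukocytes from the blood. The gene of miR-142 is active in nearly all cells of haematopoietic origin, and both of its arms are loaded into Argonaute and repress targets. miR-150 is abundant in mature B and T lymphocytes, where the transcription factor Myb is its best known target. miR-342 is carried in an intron of Evl, a gene for an actin regulator, and is plentiful in lymphoid cells, though it is made in other cell types too. In RNA from a whole tissue, fewer cells of a type and less of an RNA per cell cannot be told apart.

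The mature sequences are shown because the read counts of each arm rest on them and because the arms of a hairpin carry different seeds, the stretch by which a miRNA finds its targets. They are the RefSeq sequences of GRCm38.p6, written 5′ to 3′, with the seed (bases 2 to 8) in capitals. RefSeq entries were matched for 5 of the 6 names. miR-142a-5p lies at chr11:87756867-87756887 and miR-142a-3p at chr11:87756903-87756925, miR-150-3p at chr7:45121798-45121819, miR-342-5p at chr12:108658638-108658659 and miR-342-3p at chr12:108658680-108658702, all on the plus strand.
miR-142a-5p: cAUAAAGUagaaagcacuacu
miR-142a-3p: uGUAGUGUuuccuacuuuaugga
miR-150-3p: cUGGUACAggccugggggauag
miR-342-5p: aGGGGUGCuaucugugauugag
miR-342-3p: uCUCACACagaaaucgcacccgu
The 5 seeds were all different. Of the 1647 names in the table with a RefSeq sequence, 0 others among those counted had any of these seeds. The search took names on all chromosomes, but any match on a single chromosome, which holds none of the 5 sequences, was dropped before counting. The 0 therefore does not cover that chromosome. No sequence was matched for miR-150-5p, so its seed was not searched. Within these limits no other named miRNA was added to the group by seed.

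The hairpins of miR-142a and miR-342 differ in the balance of counts between their arms, as given below. They are printed with the mature arms in capitals, again from RefSeq and on the plus strand. The miR-142a hairpin spans chr11:87756864-87756927, within an intron of Mir142hg, a long non-coding RNA gene, by the GENCODE annotation of GRCm38. The miR-342 hairpin spans chr12:108658620-108658718, in an intron of Evl on the same strand.
Mir142: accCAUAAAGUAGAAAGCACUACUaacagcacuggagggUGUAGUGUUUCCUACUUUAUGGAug
Mir342: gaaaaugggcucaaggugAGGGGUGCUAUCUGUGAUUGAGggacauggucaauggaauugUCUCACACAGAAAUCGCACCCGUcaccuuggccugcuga
A second annotated miRNA, miR-142b, lies on the opposite strand of the same place on chromosome 11. Its mature sequence, of 20 bases, is over its whole length the reverse complement of bases within miR-142a-3p.
miR-142b: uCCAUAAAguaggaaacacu
Whether the counting used strand is not given, so reads of miR-142a-3p and miR-142b cannot be told apart with certainty. The table held 21 to 47 counts of miR-142b in PZH livers and 12 to 86 in water livers, against at least 6008 of miR-142a-3p in PZH livers and at least 6903 in water livers.

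Depth and the state of the libraries bear on all values below. Total counts ran from 6065480 to 10436478 in the PZH libraries and from 4961913 to 20211784 in the water libraries. The tissue label was met, since the hepatocyte miRNA miR-122-5p was the second most abundant miRNA of the table, at 107905 ± 13911 CPM in PZH livers and 104137 ± 8000 CPM in water livers (SD, n = 6 each). CPM here are counts scaled to 1 common library size, with TMM factors. Water replicate 2 stood apart in 5 epithelial and biliary miRNAs, which summed to 2192 CPM there and to between 864 and 1246 CPM in all PZH livers and between 931 and 1151 CPM in the other water livers. Values without it are given beside the calls below that it changed among the 6 arms, their ratios, the lists and the neighbours.

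miR-342-3p rose with PZH, and it was the only arm of the 3 genes to pass the test. In PZH livers it had 2270 CPM at the lowest, 3145 at the median and 3470 at the highest. In water livers the lowest was 1868, the median 2222 and the highest 2628 CPM. The groups overlapped, but all 6 PZH livers lay above the water median and 4 of them above every water liver, and 3 water livers lay below every PZH liver. The means were 2978 ± 445 CPM with PZH and 2231 ± 259 CPM with water (SD, n = 6 each), a log2 fold change of 0.42 with an SE of 0.11, or 1.33-fold (edgeR quasi-likelihood test, Benjamini-Hochberg adjusted p = 0.0109). The call was kept under each of 21 alternatives, which were 9 other settings and the omission of each library (log2 fold change 0.36 to 0.51, adjusted p 0.00155 to 0.0321).

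The other arm of the same hairpin, miR-342-5p, is the scarce one. It had 12.9, 16.7 and 19.7 CPM in PZH livers (lowest, median and highest) and 8.64, 13.4 and 17.6 CPM in water livers. Of the 6 PZH livers, 5 lay above the water median, and the groups overlapped widely. Its log2 fold change of 0.33, with an SE of 0.17, had the same sign as that of miR-342-3p and did not pass the test (edgeR adjusted p = 0.184). At 59 to 338 counts per library it was measured with far fewer reads than miR-342-3p, which had at least 11605.

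For miR-142a, the gene common to all leukocytes, both arms had lower means with PZH, and neither passed the test. miR-142a-5p had 1373, 1864 and 2893 CPM in PZH livers (lowest, median and highest) and 2016, 2561 and 2907 CPM in water livers. In 4 of 6 PZH livers it was below every water liver, while PZH replicate 3 stood with the highest water livers. Means were 2061 ± 556 CPM with PZH and 2494 ± 360 CPM with water (SD, n = 6 each; log2 fold change -0.27, SE 0.15, edgeR adjusted p = 0.240).

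miR-142a-3p had 898, 1014 and 1343 CPM in PZH livers (lowest, median and highest) and 972, 1356 and 1615 CPM in water livers. All 6 PZH livers were below the water median and 3 were below every water liver. Means were 1060 ± 175 CPM with PZH and 1326 ± 237 CPM with water (SD, n = 6 each; log2 fold change -0.32, SE 0.13, edgeR adjusted p = 0.0920). Leaving out 1 liver could change the call. Without PZH replicate 3, the highest of its group, the log2 fold change was -0.40 and passed (edgeR adjusted p = 0.0401), and so it did without water replicate 2, the lowest of its group (-0.40, edgeR adjusted p = 0.0251), the range over all 21 alternatives being 0.0251 to 0.247.

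miR-150-5p, the lymphocyte miRNA, had about the same mean in both groups. It had 109, 163 and 206 CPM in PZH livers (lowest, median and highest) and 114, 163 and 180 CPM in water livers. The PZH livers were the more spread, with 3 above every water liver and 1 below every water liver. Means were 162 ± 41.2 CPM with PZH and 156 ± 24.3 CPM with water (SD, n = 6 each; log2 fold change 0.05, SE 0.16, edgeR adjusted p = 0.898), and the sign turned without PZH replicate 3 (-0.03) or without water replicate 3 (-0.03).

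The scarce arm, miR-150-3p, was counted only 45 to 102 times per PZH library and 9 to 116 times per water library. It had 6.02, 7.89 and 11.8 CPM in PZH livers (lowest, median and highest) and 1.80, 5.68 and 8.16 CPM in water livers. All 6 PZH livers lay above the water median and 4 water livers below every PZH liver. The log2 fold change of 0.57 was the largest of the 6 arms and also had the largest SE, 0.27 (edgeR adjusted p = 0.148).

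**Figure D1:**
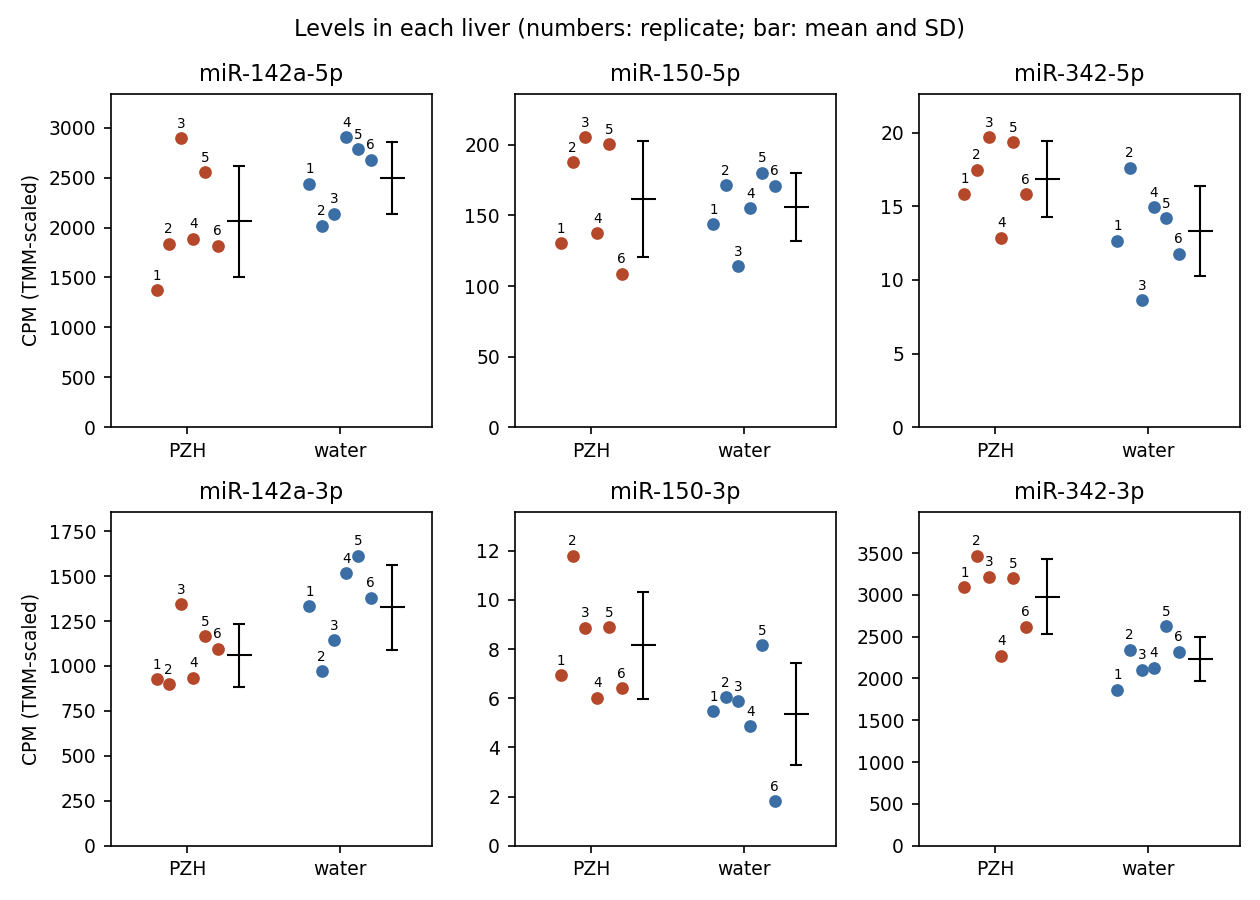
Level of each arm in every liver, in CPM after TMM scaling, with PZH livers left and water livers right of each panel; each point is 1 library with its replicate number, and the bar gives the mean and SD of 6. miR-342-3p was higher in all 6 PZH livers than the water median of 2222 CPM, while miR-142a-3p was lower in all 6 than the water median of 1356 CPM.

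Counted over the group, 1 of 6 arms passed the test, and it was higher with PZH. Of all 607 tested miRNAs, 129 passed (21.3%), 60 higher (9.88%) and 69 lower (11.4%), so a count of 1 in 6 is close to what the whole table gives. At an unadjusted p under 0.05 there were 196 of 607 (32.3%) and 3 of the 6 arms, namely miR-342-3p, miR-142a-3p and miR-150-3p. The groups did not overlap for 0 of the 6 arms, against 61 of 607 tested (10%). The median log2 fold change was 0.19 over the 6 arms and -0.03 over all tested miRNAs.

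Both arms of miR-342 had positive and both arms of miR-142a negative log2 fold changes under each of the 21 alternatives. To ask whether the genes differed from each other in their response, the more abundant arm of each was set over that of another within each library, which needs no scaling between libraries. The more abundant arms were miR-142a-5p, miR-150-5p and miR-342-3p. All 3 pairs were compared, each in a limma fit over the log2 ratios of 606 miRNAs to the same denominator.

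Relative to miR-142a-5p, miR-342-3p was higher with PZH. Its counts were 1.11, 1.35 and 2.25 times those of miR-142a-5p in PZH livers (lowest, median and highest) and 0.731, 0.904 and 1.16 times in water livers. The order of the 2 arms thus differed between groups, with miR-342-3p above miR-142a-5p in 6 of 6 PZH livers and in 1 of 6 water livers, that being water replicate 2. In 5 of 6 PZH livers the ratio was above every water liver. The log2 ratio differed by 0.72 (SE 0.21), or 1.64-fold (limma adjusted p = 0.0424 over all 606 ratios; two-sided exact permutation p = 0.00433, where the smallest possible is 0.00216). Against this denominator 71 of 606 miRNAs were called (11.7%), 55 of them higher (9.08%), and the median log2 difference over all of them was 0.27, against a denominator whose own log2 fold change was -0.27.

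That call was not firm. It ended without PZH replicate 1, 2, 5 or 6 and without water replicate 1, 3, 4, 5 or 6 (limma adjusted p 0.0549 to 0.110, log2 differences 0.59 to 0.76). The call was kept without PZH replicate 3 or 4 or water replicate 2 (limma adjusted p 0.0250 to 0.0479).

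miR-342-3p was also set against miR-150-5p, the other lymphocyte miRNA. It had 15.6, 17.5 and 24.1 times the counts of miR-150-5p in PZH livers (lowest, median and highest) and 13.0, 13.7 and 18.5 times in water livers. All 6 PZH livers were above the water median and 5 of the 6 water livers below every PZH liver. The log2 difference was 0.38 (SE 0.19) and was not called across the table (limma adjusted p = 0.304; exact permutation p = 0.0216), where 59 of 606 miRNAs were called against that denominator (9.74%).

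For miR-150-5p over miR-142a-5p the ratio was 0.0598, 0.0756 and 0.102 in PZH livers (lowest, median and highest) and 0.0533, 0.0614 and 0.0850 in water livers. The ratio lay above the water median in 5 of 6 PZH livers, and the log2 difference of 0.33 (SE 0.19) was not called (limma adjusted p = 0.305; exact permutation p = 0.0584). A difference between the response of miR-150 and that of either other gene was therefore not shown, which is not evidence that they responded alike.

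Ratios between different miRNAs in 1 library also carry the unequal capture of sequences by small RNA ligation, so that the level of one arm above another is a level of counts and not of molecules. The comparison of a ratio between groups is free of that as far as the capture is the same in all libraries.

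**Figure D2:**
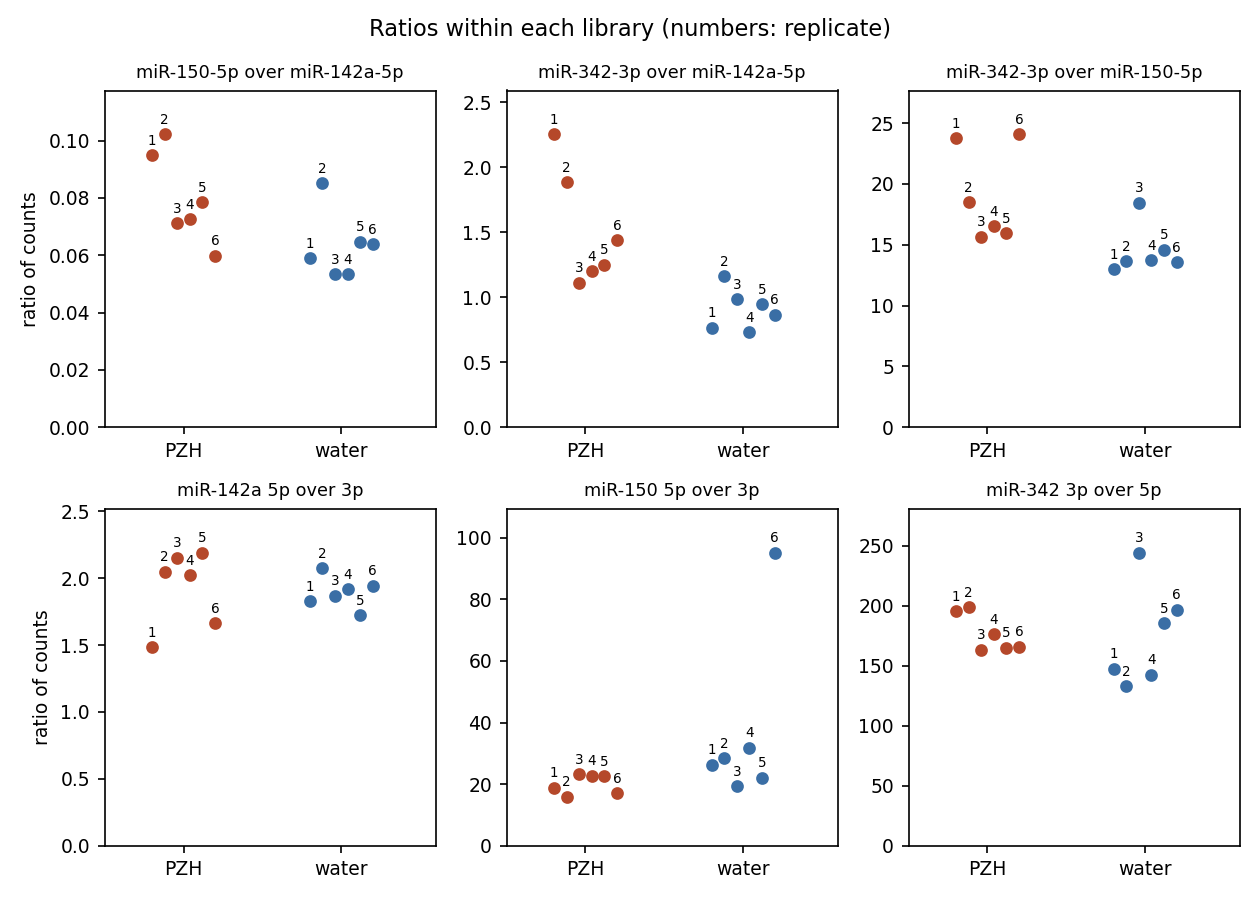
Ratio of counts within each library, with PZH livers left and water livers right and replicate numbers beside the points; the upper row sets the more abundant arms of the 3 genes over each other, the lower row the arms of each hairpin. miR-342-3p over miR-142a-5p was above 1 in all 6 PZH livers and in 1 of 6 water livers, and the point at 95.1 is miR-150 in water replicate 6, where the 3p arm had 9 counts.

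No hairpin of the 3 had a called difference in the balance of its arms. For miR-142a, where both arms are plentiful, miR-142a-5p had 1.93 ± 0.286 times the counts of miR-142a-3p in PZH livers and 1.89 ± 0.118 times in water livers (SD, n = 6 each). PZH livers took both the highest and the lowest of the 12 values, 2.19 and 1.48. The log2 ratio of 5p to 3p differed by 0.01 (SE 0.11; limma adjusted p = 0.959; exact permutation p = 0.894). For miR-342, miR-342-3p had 177 ± 15.8 times the counts of miR-342-5p in PZH livers and 175 ± 42.2 times in water livers (SD, n = 6 each), and the log2 ratio of 5p to 3p differed by -0.05 (SE 0.15; limma adjusted p = 0.839; exact permutation p = 0.716).

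For miR-150 the 5p arm had 15.9, 20.7 and 23.2 times the counts of the 3p arm in PZH livers (lowest, median and highest) and 19.4, 27.3 and 95.1 times in water livers. All 6 PZH livers were below the water median. The log2 ratio differed by -0.64 (SE 0.29) and was not called over the 137 hairpins tested (limma adjusted p = 0.178; exact permutation p = 0.0325). Without water replicate 6, with its 9 counts of the 3p arm, the difference was -0.35 (limma adjusted p = 0.214). Of the 137 hairpins 11 were called (8.03%), and 0 of these 3. That background was itself unsteady, with 3 called hairpins without water replicate 1 or 4 and between 3 and 14 over all omissions of 1 library.

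Across livers, apart from the group difference, the 2 arms of miR-142a went together. Over the 12 libraries, with log2 CPM centred on group means, miR-142a-3p and miR-142a-5p had Pearson r = 0.83 (permutation p = 0.00034) and Spearman rho = 0.87 (permutation p = 0.00117). For this pair r was 0.77 without PZH replicate 3 and water replicate 2, the libraries farthest from the median of miR-142a-3p. Of the 15 pairs of arms that were compared, this was the only one with an adjusted p under 0.05 by Pearson r (adjusted p = 0.0051 and 0.0175 by r and rho, permutation).

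miR-150-5p went with both arms of miR-342 by rank. With miR-342-3p it had r = 0.67 (permutation p = 0.0335, adjusted 0.168) and rho = 0.78 (permutation p = 0.00564, adjusted 0.0301), with r = 0.68 within the PZH livers, 0.65 within the water livers and 0.69 without PZH replicate 6 and water replicate 3. With miR-342-5p it had r = 0.69 (permutation p = 0.00855, adjusted 0.0641) and rho = 0.75 (permutation p = 0.00602, adjusted 0.0301), and r was 0.63 without the same libraries. With miR-142a-5p it had r = 0.64 (permutation p = 0.0598, adjusted 0.206) and rho = 0.65 (permutation p = 0.0499, adjusted 0.125), and r was 0.51 without PZH replicates 1 and 3. The difference between these correlations was not tested.

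miR-342-3p and miR-142a-5p showed little relation, with r = 0.21 (permutation p = 0.597, adjusted 0.689) and rho = 0.28 (permutation p = 0.415, adjusted 0.519), and r = 0.26 without PZH replicates 1 and 3. Livers high in one were thus not regularly high in the other. The 2 arms of miR-150 had r = 0.24 (permutation p = 0.399, adjusted 0.599) and rho = 0.50 (permutation p = 0.0951, adjusted 0.204), and those of miR-342 r = 0.54 (permutation p = 0.0688, adjusted 0.206) and rho = 0.63 (permutation p = 0.039, adjusted 0.117). Without the libraries farthest from the median of miR-150-5p, r was 0.31 for the arms of miR-150. Without those farthest from the median of miR-342-3p, r was 0.42 for the arms of miR-342.

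The miRNAs most like each gene were taken by the highest Pearson r to its more abundant arm, over the same 12 centred libraries and among the 337 others whose mean reached 10 CPM. For miR-142a-5p they were miR-181c-5p (r = 0.93), miR-223-3p (r = 0.92) and miR-27a-3p (r = 0.92). For miR-150-5p they were miR-547-3p (r = 0.90), miR-212-3p (r = 0.89) and miR-497a-5p (r = 0.86). For miR-342-3p they were miR-27a-5p (r = 0.85), miR-99b-3p (r = 0.82) and miR-125b-5p (r = 0.80). In the same order, r to miR-342-3p was 0.97, 0.82 and 0.96 within the PZH livers and 0.57, 0.83 and 0.38 within the water livers. As the best of 337 these values are a description and have no p. Of the 9, miR-223-3p and miR-27a-5p differed between groups, both lower with PZH (log2 fold changes -0.58 and -0.53, edgeR adjusted p = 0.00583 and 0.0180). miR-27a-5p, the nearest to miR-342-3p across livers, therefore moved the other way between groups.

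**Figure D3:**
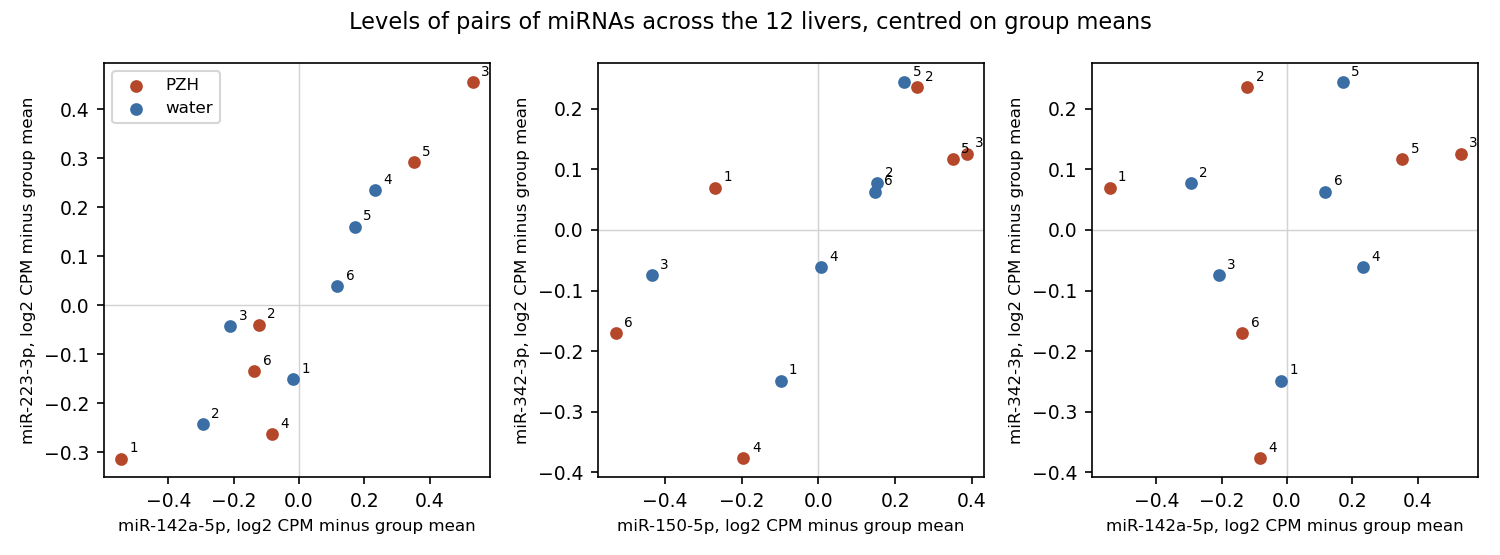
Levels of 3 pairs of miRNAs in the 12 livers, as log2 CPM minus the mean of the liver's own group, with PZH livers and water livers in their own colours and replicate numbers beside the points. miR-142a-5p and miR-223-3p lie near a line (r = 0.92), miR-150-5p and miR-342-3p less so (r = 0.67), and miR-142a-5p and miR-342-3p scatter (r = 0.21).

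Other leukocyte miRNAs were read beside these genes from lists of a myeloid and an immune kind. Of 5 myeloid names, 4 were tested and 1 was called, miR-223-3p, a miRNA of neutrophils and monocytes, which fell. It had 497, 582 and 847 CPM in PZH livers (lowest, median and highest) and 792, 937 and 1103 CPM in water livers, with 5 of 6 PZH livers below every water liver. The others tested were miR-223-5p (log2 fold change -0.02) and the macrophage miRNAs miR-511-3p (-0.10) and miR-511-5p (0.07), and the list's median was -0.06. Summed, the myeloid list ran from 610 to 977 CPM in PZH livers and from 939 to 1207 CPM in water livers. Most of the sum was miR-223-3p, with a mean of 629 of 746 CPM in PZH livers and 943 of 1068 CPM in water livers. The order of livers by this sum is therefore largely that of miR-223-3p. miR-147-3p, induced in stimulated macrophages, was too low to test and was at 0 in PZH replicates 4 and 6. This sum and miR-142a-5p were both highest in PZH replicate 3 and lowest in PZH replicate 1 within the PZH group, and the part of myeloid cells in the level of miR-142a was not tested.

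In the list of other immune miRNAs, 1 of 5 was called, the feedback regulator of inflammatory signalling miR-146a-5p, which fell (log2 fold change -0.47, SE 0.12, edgeR adjusted p = 0.0130). Uncalled were miR-155-5p, induced in activated leukocytes (-0.34, adjusted p = 0.0951), miR-181a-5p (-0.20, adjusted p = 0.111), miR-181b-5p (0.26, adjusted p = 0.0771) and miR-146b-5p (0.12, adjusted p = 0.459), all by edgeR. The list's median was -0.20, and its sum ran from 8907 to 12997 CPM in PZH livers and from 10868 to 13738 CPM in water livers. Among the 15 leukocyte miRNAs tested here, 1 was called higher, miR-342-3p, where 9.88% of all tested miRNAs were. Called lower were miR-223-3p and miR-146a-5p, where 11.4% of all tested miRNAs were. In both directions the count is near the background. Without water replicate 4, miR-146a-5p was no longer called (-0.40, edgeR adjusted p = 0.0504), and without PZH replicate 3, miR-155-5p was (-0.43, edgeR adjusted p = 0.0442).

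**Figure D4:**
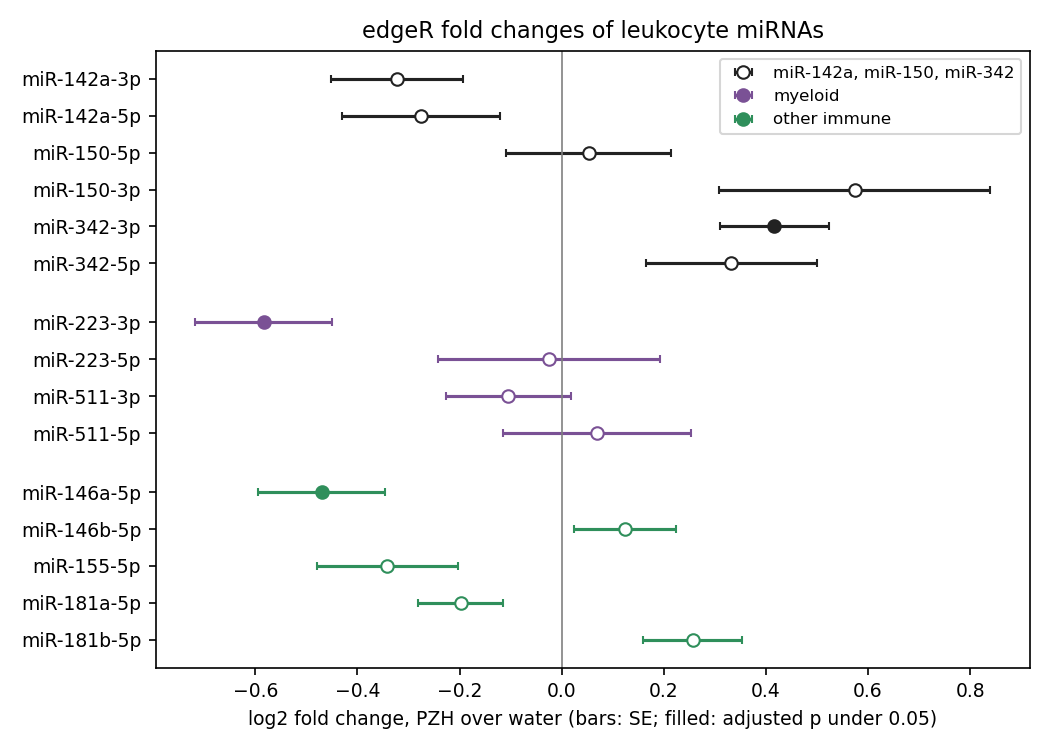
Log2 fold change of PZH over water by edgeR for the 6 arms and for the tested members of the myeloid and other immune lists, with the SE as bars and filled points for an adjusted p under 0.05. miR-342-3p (0.42) is filled to the right of 0, and miR-223-3p (-0.58) and miR-146a-5p (-0.47) are filled to the left.

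Lists for other cell types give the setting in which miR-342-3p rose. The counts called in them stand beside 21.3% of all 607 tested miRNAs called, and 11.4% called lower. The 6 hepatocyte miRNAs summed to between 202898 and 264104 CPM in PZH livers and between 221357 and 256415 CPM in water livers, with 1 of 6 called, lower. The 5 mesenchymal miRNAs summed to between 52788 and 92619 CPM in PZH livers and between 63446 and 92359 CPM in water livers, with 0 of 5 called. The 4 erythroid miRNAs, which report blood left in the tissue, summed to between 3237 and 5502 CPM in PZH livers and between 3661 and 5759 CPM in water livers, with 0 of 4 called. The 2 endothelial arms summed to between 10272 and 13900 CPM in PZH livers and between 12863 and 17096 CPM in water livers. Both were called lower, but they are the arms of miR-126a and so not separate loci. The call of miR-126a-5p (-0.33, edgeR adjusted p = 0.0445) was kept in only 3 of the 12 omissions of a library. Of the 5 epithelial and biliary miRNAs, 2 were called lower, miR-200c-3p (-0.97, edgeR adjusted p = 0.0295) and miR-141-3p (-0.87, edgeR adjusted p = 0.0424). Without water replicate 2, miR-200c-3p was at -0.53 and called, and miR-141-3p was at -0.48 and not called (edgeR adjusted p = 0.0831). Over all 12 omissions, miR-200c-3p was called in 8 and miR-141-3p in 3. Without water replicate 2 the erythroid miR-451a was called lower (-0.40, edgeR adjusted p = 0.0281). Without PZH replicate 6, the hepatocyte list had 3 called lower in place of 1. The part of these cell types in the level of miR-342-3p was not tested. The table holds no messenger RNA, so lymphocyte markers other than miRNAs were not used here.

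On the chromosome, miR-342 has neighbours that rose with PZH, but at a distance. Downstream of miR-342 on chromosome 12, and within 1 Mb, the table has 38 other names from 21 hairpins. The nearest are the arms of miR-345, at a distance of 178.3 kb, and neither was called (miR-345-3p 0.21, edgeR adjusted p = 0.184; miR-345-5p -0.23, edgeR adjusted p = 0.20). From 885.9 to 959.5 kb lie the nearest miRNAs of Dlk1-Dio3, an imprinted region. Of these, 15 were tested and 9 called, all 9 higher, where 9.88% of all tested miRNAs were called higher. The log2 fold changes of all 15 ran from 0.29 to 2.07, with a median of 1.11. The 15 include both arms of some hairpins, such as miR-127, so they are not separate loci. Over the omissions of 1 library, 8 to 11 of the 15 were called, all higher, and miR-665-3p was called in only 5 of 12 omissions. Without water replicate 2, 11 were called. Those added were miR-3071-3p (1.28, edgeR adjusted p = 0.0316) and miR-136-3p (0.67, edgeR adjusted p = 0.0419). miR-342-3p, at 0.42, lay near the low end of the range of the 15, and the arms of miR-345, which lies between, had values on both sides of 0. These neighbours were known to have changed before the distances were looked up.

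Around miR-142a, 6 other names lay within 1 Mb, of which 5 were tested and 0 called (log2 fold changes -0.48 to -0.06), with miR-142b on the opposite strand at -0.34 (edgeR adjusted p = 0.390). Around miR-150, 9 names lay within 1 Mb, of which 3 were tested and 1 called. It was miR-5121, 5.1 kb from miR-150-3p on the opposite strand, which had 5.51 CPM on average in PZH livers and 12.6 CPM in water livers (log2 fold change -1.17, SE 0.28, edgeR adjusted p = 0.00769). Without PZH replicate 2, miR-7053-3p was called lower as well (-1.23, edgeR adjusted p = 0.0411). The log2 fold change of miR-150-5p was 0.05. Beside these counts of 0 of 5 and 1 of 3, 21.3% of all tested miRNAs were called and 11.4% were called lower.

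**Figure D5:**
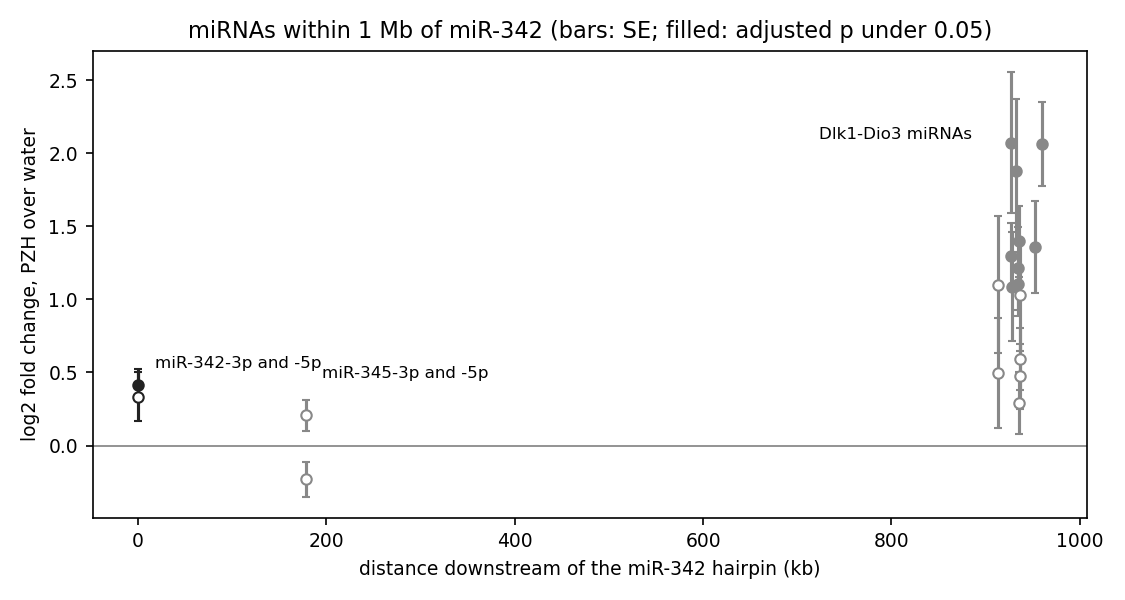
Log2 fold change of PZH over water for the arms of miR-342 (black, at 0 kb) and for the tested miRNAs within 1 Mb downstream of its hairpin (grey), by distance in kb, with the SE as bars and filled points for an adjusted p under 0.05. The arms of miR-345 at 178.3 kb lie on both sides of 0, and the tested Dlk1-Dio3 miRNAs, from 913.3 to 959.5 kb, lie between 0.29 and 2.07.

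In order of level, the 6 arms ran from miR-342-3p to miR-150-3p in PZH livers. By mean CPM over all 12 libraries miR-342-3p was at place 50 of the 1929 names, miR-142a-5p at 55, miR-142a-3p at 72, miR-150-5p at 151, miR-342-5p at 310 and miR-150-3p at 380. In water livers miR-142a-5p (2494 ± 360 CPM) and miR-342-3p (2231 ± 259 CPM) had overlapping ranges, with miR-142a-5p the higher in 5 of 6 livers, while in PZH livers the mean of miR-142a-5p was 2061 ± 556 CPM and that of miR-342-3p 2978 ± 445 CPM (SD, n = 6 each). Both arms of miR-142a together took 0.318% ± 0.0774 of all counts in PZH livers and 0.377% ± 0.0650 in water livers, both arms of miR-342 took 0.306% ± 0.0564 in PZH livers and 0.221% ± 0.0288 in water livers, and both arms of miR-150 took 0.0174% ± 0.00485 in PZH livers and 0.0159% ± 0.00262 in water livers (SD, n = 6 each). The coefficient of variation between livers was widest among the 6 arms for miR-142a-5p in the PZH group (27.0%) and for miR-150-3p in the water group (38.6%), and narrowest for miR-342-3p in both (14.9% in PZH livers and 11.6% in water livers).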

How the data were processed

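The deposited table holds raw counts per mature miRNA, 1 column per library, with no normalization. The submitters' processing notes name cutadapt, FastQC, BWA, DESeq2 and GRCm38; the tools' versions, the counter, its use of strand and its handling of multiply matching reads are not stated there. No cell holds the value 1 while 3049 hold 2, for a reason not stated. Counts were compared with edgeR 4.0.16 (quasi-likelihood test, TMM, default filter) in R 4.3.3 over the whole table, with Benjamini-Hochberg adjustment over 607 miRNAs. Ratios (pseudocount 1) were fitted with limma 3.58.1, arm ratios for hairpins with a mean of at least 20 counts in both arms. Correlations used a prior count of 2 and 100000 permutations within groups. The libraries left out of a correlation were the 2 farthest from the median of a single arm of the pair. The labels give no batch and do not say that each library is a separate animal, so p-values measure the spread between these libraries, which may be technical.

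The miRNAs and lists were chosen with earlier results of these data known. Named miRNAs were the 6 arms, the immune and myeloid lists, the 3 most correlated with each gene, those sharing a seed and those within 1 Mb. Hepatocyte, mesenchymal, erythroid, endothelial and epithelial lists were summed; from these, miR-122-5p was named as the tissue check and others where leaving out a library changed a call, an alternative chosen after seeing the data. Alternatives, with DESeq2 1.42.0 among them, are in the closing section.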

Additional observations from a re-analysis of the deposited data

Results flagged for a closer look

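In 24 groups of 6 values (the 6 levels and 6 ratios in each of 2 groups of livers), 3 held a liver far from the others by Dixon's criterion, which chance meets in about 1 group in 20. In water replicate 6 the ratio of miR-150-5p to miR-150-3p counts was 95.1, against 31.9 in the next water liver. In water replicate 2 the ratio of miR-150-5p to miR-142a-5p counts was 0.0850, against 0.0647 in the next. In water replicate 3 the ratio of miR-342-3p to miR-150-5p counts was 18.5, against 14.6 in the next.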

How the results depend on the processing

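The call of miR-342-3p was kept under all 21 alternatives, and the other 5 arms stayed uncalled under all of theirs, except miR-142a-3p in 2 omissions. Over the omissions of each library, the log2 fold change ran from -0.40 to -0.26 for miR-142a-3p, from -0.031 to 0.14 for miR-150-5p, and the log2 ratio difference from -0.026 to 0.086 for the arms of miR-142a and from -0.15 to 0.018 for those of miR-342. For miR-342-3p over miR-142a-5p it ran from 0.59 to 0.80, and with a replicate block it was 0.72 and no longer called (limma adjusted p = 0.0997; range over all its alternatives 0.0250 to 0.110). The numbers do not pair livers by any label, with correlations of -0.15 to 0.08 between same-numbered libraries and 1 of 6 water libraries closest to its own number; with the replicate block edgeR called 114 miRNAs in place of 129 and miR-342-3p kept its call (0.41). Called arm ratios, 11 in the main analysis, numbered 6 with the block, 4 with a minimum of 5 counts, 19 with a minimum of 100 counts, and 3 to 14 over omissions. A filter of 10 CPM in 6 libraries, which leaves fewer miRNAs to test, gave 36 calls in place of 71 relative to miR-142a-5p and 25 in place of 59 relative to miR-150-5p, where omissions gave 34 to 56. Causes of the other shifts were not tested. That filter left no value for miR-150-3p, nor did a minimum of 100 counts for the arm ratio of miR-150. Depth limits miR-150-3p most, with as few as 9 counts.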
